A study of Mus musculus with 38 samples.

Results

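The comparison set 6 arrays of tumor microenvironment tissue taken 4 days after inoculation of B16-shTGFb cells (shTGFb arrays 1 to 6) against 4 arrays of tissue taken at the same day after inoculation of B16-WT cells (wild-type arrays 1 to 4). These are 10 of the 38 arrays of the series. They were chosen by sample title alone and carry the titles' array numbers, and all 9890 named genes were compared. All animals were C57BL/6 mice aged 8 weeks. B16 is a melanoma line of the same mouse strain, and shTGFb stands by convention for a short hairpin RNA against TGF-beta. The sources used here do not say which TGF-beta gene the hairpin was directed at or whether the line was a single clone. A line with a control hairpin is not among the 7 labelled groups, so the hairpin and the handling of the line cannot be told apart. Nothing in the labels says that arrays came from separate animals, and p-values therefore measure the spread between samples, which may be technical. That spread was estimated jointly over all 38 arrays in the 7 groups, not from these 10 arrays alone. Control tissue of 7 arrays gives the level without an inoculated tumor.

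TGF-beta is a secreted growth factor that is made as a latent complex, bound to latent TGF-beta binding proteins in the matrix and released with the help of integrins. The active ligand binds the type 2 receptor Tgfbr2, which recruits and phosphorylates the type 1 receptor Tgfbr1, and Smad proteins then carry the signal to the nucleus. In tumors it is known for driving matrix production by fibroblasts and for restraining T cells and other immune cells. In melanoma both the tumor cells and the host cells around them can make and answer the ligand. In whole tissue such as this, fewer cells of a type and less RNA per cell cannot be told apart.

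Each value is a background-corrected, quantile-normalized intensity on the log2 scale, on which 1 unit is a doubling. Errors after ± on a difference are standard errors of the limma fit with n = 6 and n = 4 arrays. Their spread is shared by all 7 groups, so an error can be wider or narrower than the scatter of the values listed. A probe was detected where its signal exceeded the array's negative controls at a detection p under 0.05, and a value near 4.5 lies at background. Detected probes numbered 17136 to 22405 over the 10 arrays, and the median raw signal lay between 127 and 144. Genes were named by a rule (leading members of gene lists, genes whose groups did not overlap, and genes with the largest differences). Itgb6, Smurf1, Tagln, Ltbp4, Itgav, Cldn3, Elf5, Krt8, Krt18, Krt71, Krt27, Krt28, Cd79b, Csf1r, Pkm, Pfkp, Slc2a1, Vegfa, Rab38, Mlana, Kit, Col3a1, Col5a2, Fstl1, Zfp36, Cidec, Ctsl, Snx27 and Cdc42ep3 lay outside it and were chosen after their values were seen.

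A pair of arrays stood apart from the others of their group. On wild-type array 4 most genes of host tissue were near background: 17 of 24 fibroblast and collagen genes, 20 of 24 epidermal genes, 21 of 29 skeletal muscle genes and 18 of 22 macrophage genes were not detected. On none of the other 9 arrays was any of the fibroblast or epidermal genes undetected. The mean of the fibroblast and collagen list was 11.03, 10.82, 11.01, 10.87, 10.95 and 10.84 on the shTGFb arrays, against 9.29, 10.94, 10.64 and 5.95 on the wild-type arrays, with control tissue between 9.66 and 11.42. The 6 shTGFb arrays were close to each other and wild-type array 4 was far below every other array, while wild-type array 1 was also low. On shTGFb array 2 lymphocyte genes were high and pigment genes were low. The mean of the B cell list was 7.78, 11.59, 7.13, 7.25, 6.98 and 7.92 on the shTGFb arrays, against 6.76, 7.80, 7.27 and 4.94 on the wild-type arrays and 7.04 to 7.97 in control tissue. Of the 16 melanocyte genes, 9 were not detected on shTGFb array 2. The mean Spearman correlation between arrays over all genes was 0.911 within the shTGFb group and 0.782 within the wild-type group, and 0.939 and 0.879 once shTGFb array 2 and wild-type array 4 were left out. Results are given with all 10 arrays and without both of these arrays.

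**Figure D1:**
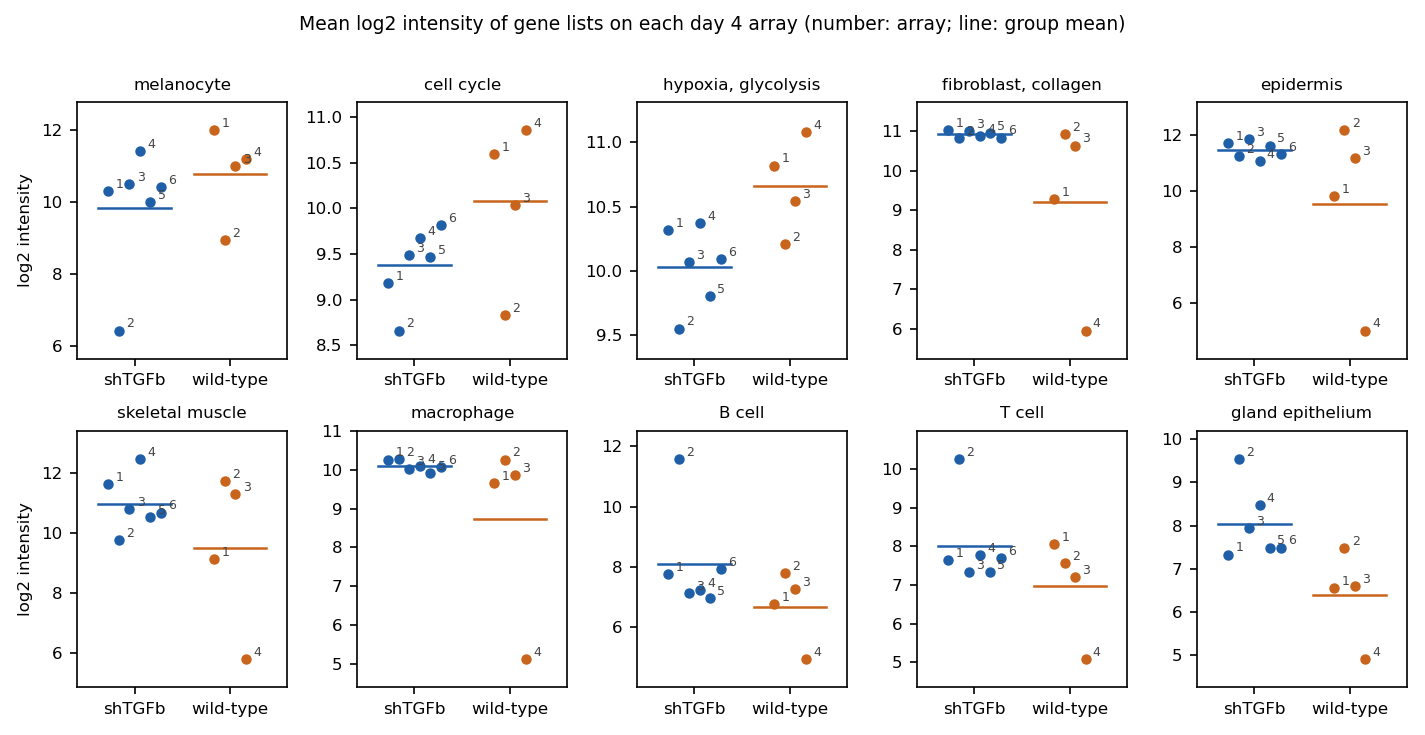
Mean log2 intensity of 10 gene lists on each day 4 array, with shTGFb arrays on the left and wild-type arrays on the right of each panel. Points carry the array number and lines are group means. Wild-type array 4 lies lowest in the fibroblast, epidermis, muscle, macrophage, B cell, T cell and gland panels, and shTGFb array 2 lies highest in the B cell, T cell and gland panels and lowest in the melanocyte panel.

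No gene passed the threshold. In the limma fit over all 38 arrays 0 of 9890 genes (0%) had a Benjamini-Hochberg adjusted p under 0.05, and the smallest adjusted p was 0.505. At an unadjusted p under 0.05 there were 811 genes (8.2%), of which 420 (4.25%) were higher and 391 (3.95%) lower in shTGFb tissue. If no gene differed, 494.5 would be expected. Without wild-type array 4 and shTGFb array 2, again 0 genes were called, with a smallest adjusted p of 1. The count at an unadjusted p under 0.05 was then 138 (1.4%), with 116 higher (1.17%) and 22 lower (0.222%). That count lay below the 494.5 expected if no gene differed, but its spread was shared with arrays outside the comparison. Normalized and fitted alone, the 8 remaining day 4 arrays gave 341 genes (262 higher, 79 lower), also with 0 called. Neither count shows that no gene differed. Leaving out wild-type array 4 alone gave 101 genes (1.02%), leaving out shTGFb array 2 alone gave 675 (6.83%), and leaving out wild-type array 2 alone gave 2262. A total of 98 genes lay under an unadjusted p of 0.05 with the same sign both with all arrays and without the pair. The verdict of 0 calls held on leaving out each array in turn. It did not hold when limma weighted the arrays by their quality: 855 genes were then called (406 higher, 449 lower), with wild-type array 3 supplying 82.6% of the wild-type mean. A gene-by-gene estimate of the same weights gave 3 calls, Elf5 at 2.03, Cdc42ep3 at 1.24 and Snx27 at -0.58, each with an adjusted p of 0.0315, and wild-type array 3 then supplied 67.2% of the mean. Weighted in this way, the wild-type side is largely 1 array. The shTGFb side is uneven as well, with weights from 0.391 (array 2) to 3.42 (array 3) in the first estimate.

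**Figure D2:**
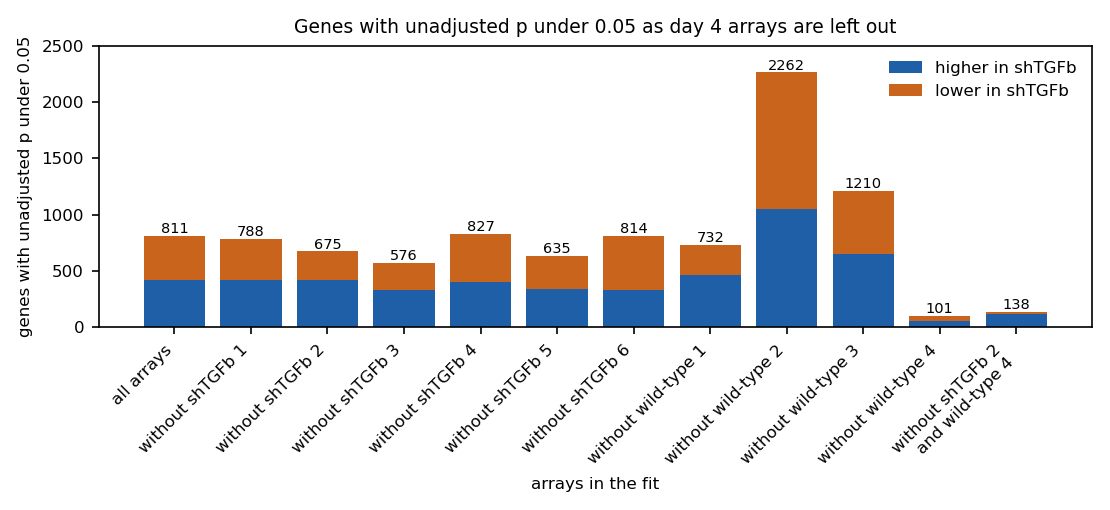
Number of genes with an unadjusted limma p under 0.05 (vertical axis) with all arrays and with each day 4 array left out, split into genes higher (blue) and lower (orange) in shTGFb tissue. The count was 811 with all arrays, 2262 without wild-type array 2 and 101 without wild-type array 4.

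The transcripts of the 3 TGF-beta ligands did not separate the groups. Tgfb1, the form made by most immune and stromal cells, had log2 intensities of 9.48, 9.71, 9.34, 9.30, 8.78 and 7.92 on the shTGFb arrays, against 8.56, 8.78, 8.82 and 8.91 on the wild-type arrays. The shTGFb arrays lay on both sides of the wild-type arrays, with shTGFb array 6 below and shTGFb arrays 1 to 4 above all of them. The difference was 0.32 ± 0.47 (95% interval -0.62 to 1.27), and control tissue lay between 8.20 and 9.12. Tgfb2 was 6.39, 6.12, 6.16, 5.90, 5.91 and 6.21 on the shTGFb arrays, against 5.41, 6.83, 6.18 and 7.32 on the wild-type arrays. Its difference of -0.32 ± 0.36 shrank to -0.03 without the pair of arrays. Tgfb3 was 7.53, 7.71, 7.07, 7.70, 7.15 and 6.97 on the shTGFb arrays, against 7.43, 7.20, 7.88 and 8.32 on the wild-type arrays, a difference of -0.35 ± 0.30. For each ligand the groups overlapped, so a lower transcript in the shTGFb tissue was not detectable in these samples, and the hairpin's effect within the tumor cells was not measured.

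The groups also overlapped for each receptor. Tgfbr1 was between 10.40 and 11.19 on the shTGFb arrays, against 10.21 to 11.07 on the wild-type arrays, with a difference of 0.05 ± 0.22 that turned to -0.06 without shTGFb array 2, -0.04 without wild-type array 1 and -0.09 without wild-type array 2. Tgfbr2 was 12.79, 13.27, 12.40, 12.66, 12.77 and 12.80 on the shTGFb arrays, against 11.87, 12.91, 12.84 and 10.83 on the wild-type arrays. Wild-type arrays 2 and 3 lay among the shTGFb arrays, and the difference of 0.67 ± 0.46 was 0.14 ± 0.49 without the pair. The co-receptor Tgfbr3, also called betaglycan, differed by 0.70 ± 0.71 and by 0.34 without the pair. Acvrl1, a type 1 receptor of endothelial cells, was 5.96, 5.78, 6.34, 6.15, 6.10 and 5.48 on the shTGFb arrays, against 7.06, 6.09, 6.40 and 8.62 on the wild-type arrays. The highest value was that of wild-type array 4, and the difference of -1.08 ± 0.47 (95% interval -2.03 to -0.12) was -0.51 ± 0.49 without the pair.

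Among the genes that release or restrain the ligand, Itgb6 and Ltbp4 were higher and Smurf1 and Itgav lower on average, none past the adjusted threshold. Itgb6, an epithelial integrin subunit that activates latent TGF-beta, was 7.30, 7.18, 8.31, 8.47, 8.90 and 9.06 on the shTGFb arrays, against 6.88, 7.46, 7.71 and 4.84 on the wild-type arrays. shTGFb arrays 3 to 6 lay above all wild-type arrays and shTGFb arrays 1 and 2 did not. Its difference was 1.48 ± 0.68 (95% interval 0.09 to 2.87), and 1.06 ± 0.73 without the pair. Ltbp4, a latent TGF-beta binding protein, differed by 1.23 ± 0.62 (95% interval -0.03 to 2.49) and by 0.86 without the pair. Smurf1, a ubiquitin ligase that removes receptors and Smads, was 6.10, 6.23, 5.84, 5.82, 5.57 and 5.97 on the shTGFb arrays, against 6.58, 6.11, 6.59 and 7.80 on the wild-type arrays. The difference was -0.85 ± 0.33 (95% interval -1.52 to -0.17) and -0.57 ± 0.35 without the pair, when the groups no longer overlapped. The nearest of the values above were then 6.10 and 6.11, and 0.95% of all genes were lower without overlap. Itgav, the integrin alpha chain that pairs with Itgb6, lay near background with a difference of -0.56 ± 0.23 and was detected on 4 of 6 shTGFb arrays and 3 of 4 wild-type arrays. Of all 18 measured ligands, receptors and Smad regulators 11 were higher and 7 lower, with a median difference of 0.27 and of 0.12 without the pair, beside -0.06 and -0.04 over all genes tested. At an unadjusted p under 0.05 there were 2 higher and 3 lower, against 4.25% and 3.95% of all genes.

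Genes listed as TGF-beta targets were mostly higher rather than lower in the shTGFb tissue. The list shares Col1a1, Col1a2, Col3a1 and Fn1 with the fibroblast and collagen list. It shares Acta2 and Tagln with the smooth muscle and pericyte list, so it is not a separate observation from those lists. Of 25 measured targets 19 were higher and 6 lower, with a median difference of 0.99, and 8 had an unadjusted p under 0.05, all higher, against 4.25% of all genes. Without the pair of arrays 18 were higher, the median was 0.37 and 1 had an unadjusted p under 0.05. Of these 25 genes, 9 were not detected on wild-type array 4. Its part in these counts was not tested beyond leaving it out. Tgfbi, a matrix protein named for its induction by TGF-beta, was 12.71, 13.11, 12.20, 11.88, 12.00 and 11.99 on the shTGFb arrays, against 11.19, 12.94, 12.48 and 6.27 on the wild-type arrays. Wild-type arrays 2 and 3 lay within the shTGFb range, and the difference of 1.6 ± 1.05 became -0.04 ± 1.02 without the pair. Tagln, a smooth muscle actin-binding protein, was 6.21, 6.31, 6.24, 6.53, 7.19 and 7.47 on the shTGFb arrays, against 5.99, 6.38, 5.99 and 4.48 on the wild-type arrays. Its difference was 0.95 ± 0.36 (95% interval 0.21 to 1.68) and 0.60 ± 0.38 without the pair. Zeb2, a transcriptional repressor linked to epithelial-mesenchymal transition, was the member with the lowest difference, at -0.89 ± 0.46 (95% interval -1.83 to 0.05) and -1.0 ± 0.51 without the pair.

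Pmepa1 was the only member of either TGF-beta list whose 10 arrays did not overlap between groups, against 0.394% of all genes (higher). It encodes a membrane protein that is induced by TGF-beta and holds back Smad activation. Its log2 intensity was 7.44, 7.34, 8.73, 7.81, 8.58 and 8.59 on the shTGFb arrays, against 6.89, 7.33, 7.00 and 4.79 on the wild-type arrays. All shTGFb arrays were higher, shTGFb array 2 by only 0.01 over wild-type array 2, and wild-type array 4 was not detected. The difference was 1.58 ± 0.52 (95% interval 0.52 to 2.64, adjusted p = 0.505) and 1.15 ± 0.54 (95% interval 0.05 to 2.26) without the pair. Control tissue, at 7.18 to 8.04, overlapped both groups.

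**Figure D3:**
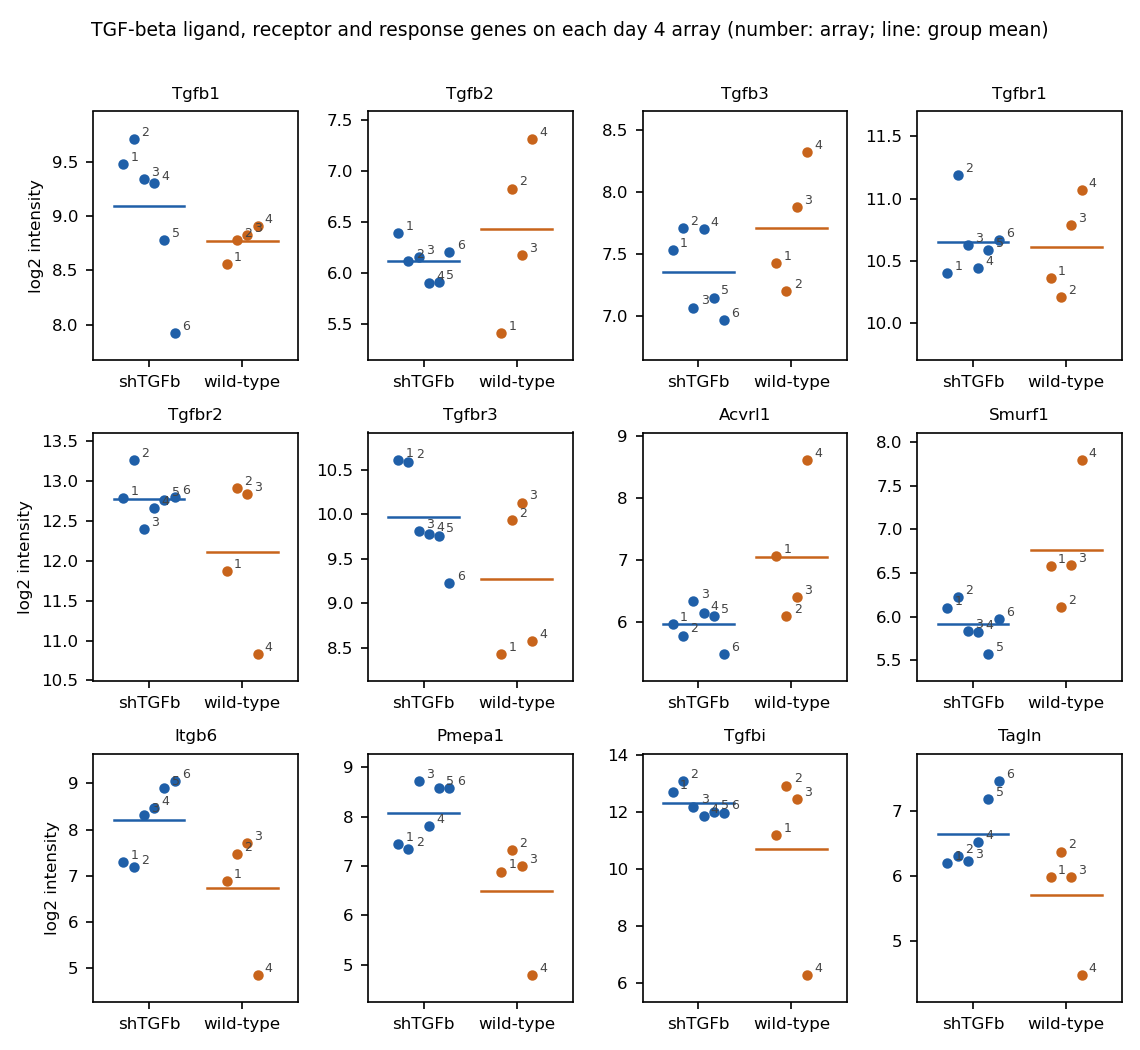
Log2 intensity of 12 TGF-beta ligand, receptor and response genes on each day 4 array, shTGFb left and wild-type right in each panel. Points carry the array number and lines are group means. The groups overlap for Tgfb1, Tgfb2 and Tgfb3, and Pmepa1 is the panel in which all 6 shTGFb arrays lie above all 4 wild-type arrays.

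Groups that did not overlap were counted next. In 96 genes (0.971%) the shTGFb arrays lay all above or all below the wild-type arrays, 39 of them higher (0.394%) and 57 lower (0.576%). Complete separation of 6 from 4 arrays in random order would occur in about this share of genes, so the count by itself shows no difference. The share given by random order rises as arrays are left out. Of the 39 higher genes 33 had an unadjusted p under 0.05, and of the 57 lower genes 44 did. Small p-values are largely set by choosing genes that separate on the same arrays, and so are the intervals given for them below. Leaving out arrays can only add to such counts, which became 106 higher (1.07%) and 94 lower (0.95%) without the pair. Leaving out wild-type array 2 alone moved them most, to 280 higher and 679 lower. Counts over 1.5 times the full ones were also reached without wild-type array 1 (106 higher, 98 lower), wild-type array 3 (67 and 108), shTGFb array 1 (90 and 100), shTGFb array 4 (76 and 87), shTGFb array 2 (89 higher) and shTGFb array 6 (123 lower).

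The highest difference among these genes was that of Fads3. Fads3, a member of the fatty acid desaturase family, was 8.65, 9.88, 10.17, 9.25, 9.71 and 9.73 on the shTGFb arrays, against 7.93, 8.34, 7.76 and 4.60 on the wild-type arrays. Its lowest shTGFb array lay above its highest wild-type array, and control tissue was between 7.66 and 9.02. The difference was 2.41 ± 0.68 (95% interval 1.02 to 3.80) and 1.49 ± 0.70 (95% interval 0.07 to 2.91) without the pair. Mme, the cell surface peptidase neprilysin, was 6.97, 8.45, 8.02, 7.32, 8.20 and 7.77 on the shTGFb arrays, against 5.72, 6.86, 6.75 and 5.01 on the wild-type arrays. Every shTGFb array was higher, and the difference of 1.70 ± 0.51 (95% interval 0.67 to 2.73) was 1.21 ± 0.56 (95% interval 0.07 to 2.36) without the pair. Ccdc68, a coiled-coil protein, was 5.75, 5.84, 7.13, 6.42, 7.43 and 7.69 on the shTGFb arrays, against 5.38, 5.71, 4.65 and 4.46 on the wild-type arrays, of which 2 detected it. Its difference of 1.66 ± 0.52 was nearly as large without the pair, at 1.64 ± 0.59 (95% interval 0.44 to 2.85). Wfdc18, a secreted protein of the whey acidic protein family, was 7.45, 8.08, 8.86, 8.24, 8.63 and 7.45 on the shTGFb arrays, against 5.82, 6.68, 6.28 and 4.34 on the wild-type arrays. It differed by 2.34 ± 0.87 and by 1.86 ± 0.99 without the pair, with control tissue as wide as 5.42 to 9.51.

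The other higher genes were also smaller in difference without the pair. Gdf10, a ligand of the TGF-beta superfamily also called bone morphogenetic protein 3b, differed by 2.32 ± 0.90 and by 1.31 ± 0.94 without the pair. Cdkn1c, the imprinted cell cycle inhibitor p57, differed by 2.16 ± 0.78 and by 1.37 ± 0.82. Nid1, which links laminin and collagen in basement membranes, was between 10.47 and 10.75 on the shTGFb arrays, against 9.17, 10.33, 10.42 and 4.77 on the wild-type arrays. Its groups were 0.05 apart between the nearest arrays, and the difference of 1.95 ± 0.80 was 0.63 ± 0.73 without the pair. Fam107b differed by 1.76 ± 0.72 and 0.63 ± 0.71, Acsm3, a mitochondrial acyl-CoA synthetase, by 1.72 ± 0.64 and 1.22 ± 0.71, and B3gnt8, which extends sugar chains with N-acetylglucosamine, by 1.65 ± 0.60 and 0.93 ± 0.60. For each of these 10 genes wild-type array 4 was the lowest array, and at most 3 of 4 wild-type arrays detected it.

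The 10 lowest were detected on all wild-type arrays, and wild-type array 4 had the highest value for 9 of them. Gsdmc, a member of the pore-forming gasdermin family, was 5.87, 6.33, 6.06, 6.60, 5.21 and 5.21 on the shTGFb arrays, against 7.87, 7.21, 7.39 and 11.30 on the wild-type arrays. All shTGFb arrays were lower, and control tissue lay between 6.42 and 8.52. The difference was -2.57 ± 0.77 (95% interval -4.14 to -0.99) and -1.70 ± 0.79 (95% interval -3.32 to -0.09) without the pair. Extl1, an enzyme of heparan sulfate synthesis, was 8.16, 6.73, 7.85, 8.21, 7.42 and 7.94 on the shTGFb arrays, against 9.56, 8.52, 8.66 and 9.59 on the wild-type arrays. Here wild-type arrays 1 and 4 were equally high, and the difference was -1.36 ± 0.43 (95% interval -2.22 to -0.50) and -0.99 ± 0.47 (95% interval -1.95 to -0.04) without the pair. Eno2, the neuronal form of the glycolytic enzyme enolase, was 7.23, 7.05, 6.51, 7.23, 6.15 and 7.32 on the shTGFb arrays, against 7.95, 7.43, 8.41 and 9.95 on the wild-type arrays. It differed by -1.52 ± 0.50 (95% interval -2.54 to -0.50) with all arrays and by -1.04 ± 0.54 (95% interval -2.14 to 0.06) without the pair.

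Clstn3, a calsyntenin of neuronal and fat cell membranes, differed by -1.33 ± 0.41 (95% interval -2.17 to -0.49) and by -0.87 ± 0.44 without the pair. Wipf3, which binds the actin regulator N-WASP, differed by -1.69 ± 0.59 and by -0.91, and Tspan4, a tetraspanin, by -1.26 ± 0.47 and by -0.96. Nudt1, which clears oxidized nucleotides, was 6.66, 5.81, 6.34, 6.84, 6.42 and 7.08 on the shTGFb arrays, against 7.94, 7.10, 7.39 and 8.55 on the wild-type arrays. The nearest arrays were 7.08 and 7.10, and the difference was -1.22 ± 0.42 (95% interval -2.07 to -0.37). Gng8, a G protein gamma subunit, was at or near background on the shTGFb arrays (4.69 to 5.46), against 5.54, 5.57, 5.63 and 8.45 on the wild-type arrays, so its difference of -1.25 ± 0.60 rested on wild-type array 4 and was -0.47 without the pair. Vgll3, a cofactor of TEAD transcription factors, differed by -1.13 ± 0.41 and by -0.57. Pgf is described with the vascular genes. Gtf2a1, a subunit of the general transcription factor TFIIA, lay outside these 10 but was among the lower genes without the pair. It was 5.90, 6.01, 5.51, 5.15, 5.12 and 5.02 on the shTGFb arrays, against 6.40, 6.11, 6.15 and 6.31 on the wild-type arrays, and differed by -0.79 ± 0.31 and by -0.89 ± 0.35 (95% interval -1.6 to -0.17) without the pair.

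Snx27 and Cdc42ep3, the genes called beside Elf5 under the gene-by-gene weights, also did not overlap. Snx27, a sorting protein that returns receptors from endosomes to the cell surface, was between 9.73 and 10.10 on the shTGFb arrays, against 10.62, 10.11, 10.61 and 10.19 on the wild-type arrays. Each shTGFb array was lower, by 0.01 at the nearest, and also below control tissue at 10.34 to 10.51. The difference was -0.40 ± 0.14 (95% interval -0.68 to -0.11) and -0.47 ± 0.16 (95% interval -0.80 to -0.15) without the pair. Cdc42ep3, an effector of the GTPase Cdc42, was 8.94, 9.39, 9.55, 8.83, 9.46 and 9.58 on the shTGFb arrays, against 8.52, 8.81, 7.77 and 8.25 on the wild-type arrays. It was higher on every shTGFb array, by 0.95 ± 0.31 (95% interval 0.33 to 1.57) and by 0.90 ± 0.36 (95% interval 0.18 to 1.63) without the pair.

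**Figure D4:**
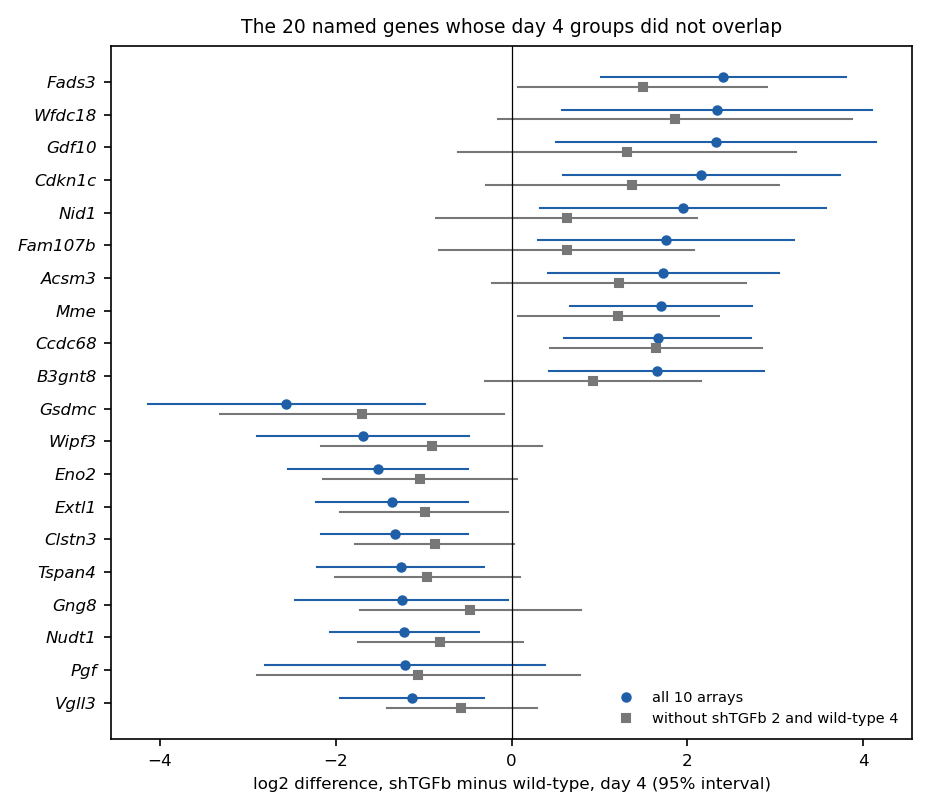
Log2 difference, shTGFb minus wild-type, with 95% intervals for the 10 highest and 10 lowest differences among genes whose groups did not overlap. Circles use all 10 arrays and squares leave out shTGFb array 2 and wild-type array 4. Every gene keeps its direction, and the squares lie nearer to 0 than the circles, by the least for Ccdc68 (1.66 and 1.64).

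Glycolysis and hypoxia genes were lower in the shTGFb tissue in nearly the whole list, without any member passing the adjusted threshold. Of 22 measured members 20 were lower, with a median of -0.62, and 3 of them (P4ha1, Pkm and Pfkp) had an unadjusted p under 0.05, against 3.95% of all genes. Without the pair 18 were lower, the median was -0.46 and none had a p under 0.05. These genes are known targets of the hypoxia-inducible factors, which bind a short core sequence in promoters, and the promoter windows of the 3 genes are therefore shown. Each runs from 250 bases before to 50 bases after the RefSeq start of the gene in GRCm38.p6, read 5′ to 3′ on the gene's strand, with the core (ACGTG or GCGTG on either strand, thus also CACGT or CACGC) in capitals. The windows are chr10:59323046-59323345 on the plus strand for P4ha1, chr13:6648722-6649021 on the minus strand for Pfkp and chr9:59656977-59657276 on the plus strand for Pkm.
P4ha1: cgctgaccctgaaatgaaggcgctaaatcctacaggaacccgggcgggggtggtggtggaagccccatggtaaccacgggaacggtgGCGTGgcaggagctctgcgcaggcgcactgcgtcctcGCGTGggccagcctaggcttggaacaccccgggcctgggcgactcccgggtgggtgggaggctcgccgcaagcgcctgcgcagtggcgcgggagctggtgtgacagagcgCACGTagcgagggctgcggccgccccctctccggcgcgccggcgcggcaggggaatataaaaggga
Pfkp: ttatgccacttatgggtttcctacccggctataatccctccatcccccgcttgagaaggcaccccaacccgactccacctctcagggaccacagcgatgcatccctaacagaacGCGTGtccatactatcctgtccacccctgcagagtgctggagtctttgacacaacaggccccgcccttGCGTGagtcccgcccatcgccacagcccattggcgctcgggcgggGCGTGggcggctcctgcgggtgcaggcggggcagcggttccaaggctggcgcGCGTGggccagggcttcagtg
Pkm: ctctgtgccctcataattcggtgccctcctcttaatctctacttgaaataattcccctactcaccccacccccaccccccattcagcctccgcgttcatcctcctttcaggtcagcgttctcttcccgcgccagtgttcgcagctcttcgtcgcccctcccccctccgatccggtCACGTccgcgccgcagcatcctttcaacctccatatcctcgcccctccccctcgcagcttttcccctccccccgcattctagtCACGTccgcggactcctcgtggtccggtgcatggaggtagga
The core occurs 3 times in the window of P4ha1, 4 times in that of Pfkp and 2 times in that of Pkm, which has another annotated start with 0 and is shown by the window with more matches. Of 20 list members with a window 19 (95%) held the core in at least 1 window, beside 12628 of 27025 genes (46.7%) and 43.8% of all 32851 windows. The shares over all genes and windows include genes not measured here, so the list is set beside an unlike set. A match is a description of the letters and not a binding site, and regulation through the core was not tested.

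P4ha1, a collagen prolyl hydroxylase subunit, had log2 intensities of 7.43, 7.99, 7.41, 8.06, 7.04 and 6.42 on the shTGFb arrays, against 8.28, 7.71, 8.23 and 10.36 on the wild-type arrays. shTGFb arrays 2 and 4 overlapped wild-type array 2, and the difference was -1.25 ± 0.46 (95% interval -2.18 to -0.32) and -0.80 ± 0.46 (95% interval -1.73 to 0.14) without the pair. Pkm, pyruvate kinase, was 13.30, 12.34, 12.95, 13.70, 12.16 and 12.22 on the shTGFb arrays, against 14.35, 12.87, 13.76 and 14.50 on the wild-type arrays. Only wild-type array 2 lay within the shTGFb range, and the difference was -1.09 ± 0.38 (95% interval -1.87 to -0.31) and -0.79 ± 0.43 (95% interval -1.66 to 0.08) without the pair. Pfkp, the platelet form of phosphofructokinase, was 10.18, 9.62, 10.61, 10.95, 10.30 and 8.91 on the shTGFb arrays, against 11.66, 10.17, 11.00 and 11.80 on the wild-type arrays. Wild-type array 2 again lay among the shTGFb arrays, and the difference was -1.06 ± 0.43 and -0.75 ± 0.49 without the pair. The glucose transporter Slc2a1 was 10.69, 10.68, 10.17, 10.17, 10.07 and 11.05 on the shTGFb arrays, against 11.55, 10.92, 11.34 and 10.98 on the wild-type arrays. In Slc2a1 wild-type array 4 was not the highest, and its difference of -0.72 ± 0.36 (95% interval -1.46 to 0.02) was -0.84 ± 0.42 (95% interval -1.70 to 0.02) without the pair. Mif, the brightest member, differed by -0.38 ± 0.26. Egln3, the prolyl hydroxylase that marks hypoxia-inducible factors for breakdown, was the member with the highest difference, at 0.34 ± 0.57. The list mean was between 9.55 and 10.37 on the shTGFb arrays, against 10.21 to 11.08 on the wild-type arrays and 9.69 to 10.71 in control tissue. The cell cycle list ran the same way on these arrays, and its part in the result was not tested.

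Melanocyte genes, which mark the B16 cells but also the pigment cells of skin, followed shTGFb array 2. Of 16 measured members 14 were lower, with a median of -1.27, which became -0.03 without the pair, with 9 lower. Mlana, a melanosome antigen, was 12.11, 4.57, 12.90, 13.97, 12.46 and 13.06 on the shTGFb arrays, against 14.31, 10.46, 13.54 and 13.58 on the wild-type arrays. shTGFb array 2 was at background, wild-type array 2 was low, and the difference of -1.46 ± 1.81 became 0.14 without the pair. Control tissue spanned 4.62 to 14.49 for Mlana. Gpnmb, a melanosome glycoprotein, was between 13.88 and 14.25 on every shTGFb array but array 2 (8.49), against 13.24 to 14.27 on the wild-type arrays. Its difference turned from negative, at -0.89 ± 0.93, to 0.03 without shTGFb array 2 and 0.11 without the pair. Rab38, which sorts cargo to melanosomes, was 10.89, 7.75, 10.59, 11.44, 10.30 and 10.67 on the shTGFb arrays, against 12.44, 10.39, 11.69 and 13.12 on the wild-type arrays. It was the only lower member with an unadjusted p under 0.05, against 3.95% of all genes, at -1.64 ± 0.70 (95% interval -3.07 to -0.21) and -0.73 ± 0.72 without the pair. Slc45a2, a melanosome transporter, differed by -1.66 ± 1.6 and by -0.36. Ednrb and Kit, which other cells of skin also carry, were the 2 higher members, by 2.18 ± 1.03 and 1.14 ± 0.39. Ednrb was at 4.52 on wild-type array 4, and its difference was 0.56 without the pair.

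Every measured cell cycle gene was lower in shTGFb tissue on average, by small amounts. All 21 members had a negative difference, with and without the pair, with a median of -0.66 and of -0.31, yet none had an unadjusted p under 0.05. Over all genes 5427 of 9890 differences were negative. The list mean was 9.18, 8.66, 9.49, 9.68, 9.47 and 9.82 on the shTGFb arrays, against 10.60, 8.83, 10.04 and 10.86 on the wild-type arrays. Wild-type array 2 lay at the low end of the shTGFb arrays and the other wild-type arrays above all of them. Rrm2, a ribonucleotide reductase subunit, had the lowest difference, at -1.23 ± 0.73 and -0.48 ± 0.80 without the pair. Mcm4, of the replicative helicase, differed by -0.31 ± 0.23 and by -0.31 ± 0.26. Respiratory chain genes showed a like picture at a smaller scale, with 22 of 23 lower, a median of -0.28 and of -0.09 without the pair.

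Stromal, muscle, fat and epidermal genes were higher in the shTGFb group with wild-type array 4 and much less so without it. Of 24 fibroblast and collagen genes 23 were higher, with a median of 1.98 and 10 with an unadjusted p under 0.05, against 4.25% of all genes. Without the pair 22 were higher, the median was 0.75 and none had such a p, in a fit whose spread was shared by all 7 groups. Col1a1, the chain of type 1 collagen, was 13.75, 12.89, 13.79, 13.58, 13.87 and 13.10 on the shTGFb arrays, against 11.18, 13.57, 13.28 and 4.43 on the wild-type arrays. Wild-type arrays 2 and 3 lay among the shTGFb arrays, and the difference of 2.88 ± 1.42 (95% interval 0.00 to 5.76) was 0.94 ± 1.36 without the pair. Col3a1 was 10.67, 10.70, 11.43, 10.15, 10.70 and 10.95 on the shTGFb arrays, against 8.17, 10.69, 9.24 and 4.56 on the wild-type arrays, and differed by 2.60 ± 1.00 and by 1.41 ± 1.04 without the pair. Dcn, the matrix proteoglycan decorin, was between 13.92 and 14.25 on the shTGFb arrays, against 12.44, 14.22, 14.09 and 4.38 on the wild-type arrays. Wild-type array 1 was thus low in each of these matrix genes beside wild-type array 4.

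Of the 24 genes of the collagen list, Col5a2 and Fstl1 were the members whose groups did not overlap, both higher, against 0.394% of all genes. Col5a2, a fibril collagen chain, was 7.01, 7.21, 7.04, 7.15, 7.06 and 8.05 on the shTGFb arrays, against 5.81, 6.91, 6.13 and 4.43 on the wild-type arrays. Its difference was 1.43 ± 0.58 (95% interval 0.26 to 2.60) and 0.98 ± 0.64 without the pair. Fstl1, a secreted follistatin-like protein, was 12.18, 11.50, 12.44, 11.98, 11.78 and 11.62 on the shTGFb arrays, against 10.13, 11.36, 11.47 and 8.36 on the wild-type arrays. All shTGFb arrays were higher, by 0.03 at the nearest, and the difference was 1.59 ± 0.72 and 1.01 ± 0.78 without the pair. The gelatinase Mmp2 was between 12.78 and 13.52 on the shTGFb arrays, against 10.97, 13.07, 12.82 and 7.52 on the wild-type arrays, and differed by 2.01 ± 0.92 and by 0.84 without the pair. Among the 22 proteases and inhibitors the median was 0.26 and 0.15 without the pair. The lysosomal protease Ctsl differed by 0.49 ± 0.38 with all arrays and by 0.88 ± 0.42 (95% interval 0.03 to 1.73) without the pair. Its groups then did not overlap, and 1.07% of all genes were higher without overlap.

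Skeletal muscle genes had 28 of 29 members higher, with a median of 1.52 and of 0.53 without the pair. The myosin light chain Myl1 was between 13.68 and 14.47 on the shTGFb arrays, against 12.73, 14.73, 14.29 and 4.93 on the wild-type arrays, and its difference of 2.56 ± 1.45 was 0.42 without the pair. Neb, the giant thin filament protein nebulin, was the only lower member, at -0.72 ± 1.02, and was detected on 3 of 6 shTGFb arrays and 2 of 4 wild-type arrays. Car3, a carbonic anhydrase of muscle and fat, was 13.51, 14.35, 13.15, 14.13, 13.37 and 9.80 on the shTGFb arrays, against 9.25, 13.74, 13.17 and 4.39 on the wild-type arrays. It was low on shTGFb array 6 as well as on wild-type arrays 1 and 4. Of 17 adipocyte genes 16 were higher, with a median of 1.73 and of 0.34 without the pair. Cidec, a lipid droplet protein, was 11.10, 12.33, 10.55, 10.34, 9.96 and 8.91 on the shTGFb arrays, against 7.69, 10.78, 9.19 and 4.47 on the wild-type arrays, and differed by 2.50 ± 1.04 (95% interval 0.39 to 4.61) and by 0.95 ± 1.05 without the pair. Of 24 epidermal genes 23 were higher, with a median of 2.03 and of 0.30 without the pair. The basal keratin Krt14 was between 14.37 and 14.59 on the shTGFb arrays, against 13.80, 14.42, 14.54 and 4.47 on the wild-type arrays. Krt6b, a keratin of the follicle and of wounded epidermis, ranged from 8.12 to 12.90 on the shTGFb arrays, against 4.47 to 9.65 on the wild-type arrays, and differed by 2.86 ± 1.40 (95% interval 0.01 to 5.71) and by 1.34 ± 1.53 without the pair.

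Hair follicle genes had the largest median difference of the lists, and it depended on single arrays. These keratins and regulators are made in the growing follicle and are low in the resting one. All 6 measured members were higher, with a median of 3.06 and of 3.21 without the pair, and 1 of them had an unadjusted p under 0.05 in either case, against 4.25% and 1.17% of all genes. The value without the pair combined opposite moves, since the median was 4.33 without shTGFb array 2 alone and 1.95 without wild-type array 4 alone, and it was 4.76 without wild-type array 1. The spread was wide, however, and arrays of both groups were at both ends. Krt71, an inner root sheath keratin, was 4.55, 4.50, 14.66, 14.29, 14.44 and 14.61 on the shTGFb arrays, against 13.63, 4.41, 7.67 and 4.33 on the wild-type arrays. It was high on shTGFb arrays 3 to 6 and wild-type array 1, and at background on shTGFb arrays 1 and 2 and wild-type arrays 2 and 4. Its difference of 3.66 ± 2.84 (95% interval -2.11 to 9.44) was 3.93 ± 3.14 without the pair, and control tissue spanned 4.39 to 14.35. Krt27 and Krt28, also of the inner root sheath, were high on the same arrays, with differences of 3.26 ± 2.78 and 2.87 ± 2.03. Krt33a, a hair cortex keratin, was 5.65, 4.56, 14.26, 13.86, 14.40 and 14.47 on the shTGFb arrays, against 12.55, 5.28, 5.20 and 5.74 on the wild-type arrays, and differed by 4.01 ± 2.50 and by 4.84 ± 2.74 (95% interval -0.75 to 10.43) without the pair.

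The transcription factors of the list behaved less alike. Dlx3, a homeobox factor of the hair matrix, was 9.44, 7.03, 12.65, 11.92, 12.66 and 12.75 on the shTGFb arrays, against 10.97, 8.99, 9.59 and 5.18 on the wild-type arrays. Its order of arrays followed the keratins, and the difference was 2.39 ± 1.23 and 2.03 ± 1.2 without the pair. Lef1, a nuclear partner of beta-catenin that is also made in T cells, was 4.61, 8.22, 6.78, 6.09, 7.34 and 6.55 on the shTGFb arrays, against 5.05, 4.79, 4.97 and 4.60 on the wild-type arrays, of which 1 detected it. Here shTGFb arrays 2 to 6 lay above all wild-type arrays, and shTGFb array 2, high in T cell genes, was the highest. The difference was 1.75 ± 0.51 (95% interval 0.71 to 2.78, adjusted p = 0.505) and 1.35 ± 0.55 (95% interval 0.23 to 2.46) without the pair, with control tissue between 4.38 and 5.99.

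Of the 8 highest differences in the fit without the pair, 6 were genes that ran close to the follicle list from array to array. These genes were chosen for being higher on the shTGFb arrays, as the follicle list also was, so part of that likeness is set by the choice. Their intervals without the pair, and those of the lower genes named with them, exclude 0 by the same choice. Over the 10 arrays, the Pearson correlation with the mean of the follicle list was 0.968 for Ephb1, an ephrin receptor, and 0.954 for the kinase Dclk3. It was 0.93 for Stra6, which takes up retinol, 0.918 for the homeobox factor Msx1, 0.902 for Tgm3, a transglutaminase of hair and epidermis, and 0.895 for Tent5b, a poly(A) polymerase. These are descriptions over 10 arrays of whole tissue, in which the follicle list itself spanned most of the scale. Ephb1 was 5.17, 5.27, 8.47, 7.93, 9.01 and 9.08 on the shTGFb arrays, against 7.07, 4.89, 5.02 and 4.52 on the wild-type arrays. Its high arrays were those of the keratins, and it differed by 2.11 ± 0.90 and by 2.27 ± 0.99 (95% interval 0.25 to 4.30) without the pair. Tgm3 was 7.32, 5.14, 9.94, 9.26, 10.62 and 9.26 on the shTGFb arrays, against 7.59, 6.93, 6.33 and 4.35 on the wild-type arrays, and differed by 2.29 ± 0.92 and by 2.32 ± 0.90 (95% interval 0.48 to 4.16) without the pair. The differences of Tent5b, Msx1, Dclk3 and Stra6 without the pair lay between 2.09 and 2.37.

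The correlation with the follicle list was lower for Chac1 (0.745) and Lrrc75b (0.665), the other higher genes named without the pair, and ran the opposite way for Agfg2 (-0.868). Chac1, which degrades glutathione and is induced by the unfolded protein response, was 9.72, 8.55, 13.02, 12.21, 12.77 and 13.13 on the shTGFb arrays, against 10.73, 9.71, 9.33 and 12.07 on the wild-type arrays. Wild-type array 4 was the highest of its group here, and the difference of 1.11 ± 0.87 was 2.24 ± 0.88 (95% interval 0.44 to 4.05) without the pair. Lrrc75b differed by 1.32 ± 0.79 and by 2.06 ± 0.88 (95% interval 0.26 to 3.85). On the lower side, Nr2f2, a nuclear receptor of veins and lymphatics, was 7.69, 7.28, 7.02, 7.02, 6.49 and 6.13 on the shTGFb arrays, against 8.03, 7.01, 8.43 and 8.72 on the wild-type arrays. Wild-type array 2 lay among the shTGFb arrays, and the difference was -1.11 ± 0.41 and -0.95 ± 0.46 (95% interval -1.88 to -0.01) without the pair. Plekha5, Agfg2 and Nhlrc2 differed by -0.92, -0.78 and -0.73 without the pair.

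**Figure D5:**
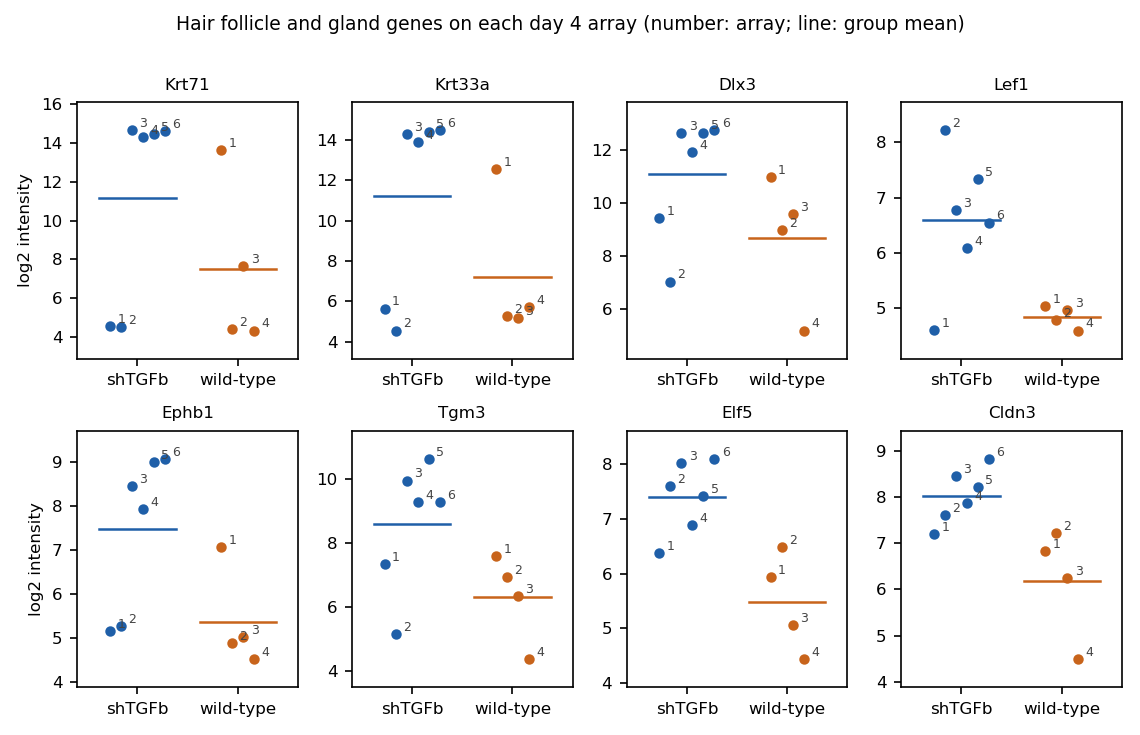
Log2 intensity of hair follicle genes, their closest followers and gland epithelium genes on each day 4 array, shTGFb left and wild-type right in each panel. Points carry the array number and lines are group means. Krt71 and Krt33a are above 12 on shTGFb arrays 3 to 6 and wild-type array 1, whereas Elf5 and Cldn3 are spread within a narrower range with only shTGFb array 1 among the wild-type values.

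Simple gland epithelium held Elf5, the list member with the smallest p-value. These keratins and tight junction proteins mark mammary and other glands of skin and fat pad. Of 10 measured members all were higher, with a median of 1.77 and 5 at an unadjusted p under 0.05, and without the pair all 10 were higher, with a median of 0.76 and 2 with such a p. The shares over all genes were 4.25% and 1.17%. Of the 10, 9 were not detected on wild-type array 4. Elf5, a transcription factor of mammary secretory cells, was 6.37, 7.60, 8.03, 6.88, 7.42 and 8.10 on the shTGFb arrays, against 5.93, 6.48, 5.06 and 4.43 on the wild-type arrays. shTGFb arrays 2 to 6 lay above all wild-type arrays, and shTGFb array 1 lay 0.11 below wild-type array 2. The difference was 1.93 ± 0.46 (95% interval 0.99 to 2.86, adjusted p = 0.505) and 1.54 ± 0.51 (95% interval 0.49 to 2.59) without the pair, and control tissue lay between 5.17 and 6.64. Cldn3, a claudin of simple epithelia, was 7.19, 7.60, 8.45, 7.87, 8.22 and 8.82 on the shTGFb arrays, against 6.82, 7.21, 6.25 and 4.49 on the wild-type arrays. The arrays overlapped only at shTGFb array 1 and wild-type array 2, and the difference was 1.83 ± 0.59 (95% interval 0.63 to 3.04) and 1.35 ± 0.64 (95% interval 0.04 to 2.65) without the pair. Cldn4 differed by 2.56 ± 1.08 and by 1.38 ± 1.06. Krt8 and Krt18, the keratin pair of simple epithelia, were highest on shTGFb array 2, at 12.39 and 10.10. Krt8 differed by 2.1 ± 1.11 and by 0.80 without the pair, and Krt18 by 1.92 ± 0.85 and by 1.03.

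Without the pair of arrays no member of the immune cell lists had an unadjusted p under 0.05. The spread behind these p-values was shared by all 7 groups and was not that of the day 4 arrays alone. The absence of small p-values therefore does not show that these genes were alike. Of 15 T cell genes 14 were higher, with a median of 1.00, and without the pair 5 were higher and 10 lower, with a median of -0.04. The 4 B cell genes had a median of 1.37 and of 0.19 without the pair. Cd79b, a chain of the B cell receptor, was 6.06, 12.65, 5.46, 6.14, 5.79 and 6.74 on the shTGFb arrays, against 6.00, 5.85, 5.55 and 5.08 on the wild-type arrays. The value of shTGFb array 2 was far above all the others, and the difference of 1.52 ± 0.80 was 0.42 without that array and 0.24 without the pair. The 2 probes of Cd8b1, a T cell co-receptor chain, disagreed: the brighter gave -0.05 ± 0.22 and the mean of both 1.18.

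All 22 macrophage genes were higher, with a median of 1.38, and 17 were higher without the pair, with a median of 0.18. C1qb, a complement chain made by macrophages, was between 12.35 and 13.03 on the shTGFb arrays, against 12.37, 12.74, 12.49 and 4.35 on the wild-type arrays. Csf1r, the receptor for macrophage colony-stimulating factor, differed by 1.74 ± 0.83 (95% interval 0.06 to 3.43) and by 0.46 ± 0.81 without the pair. MHC class II and dendritic cell genes had a median of 0.99 and of 0.06, and H2-Ab1, a class II chain, was between 13.71 and 14.37 on the shTGFb arrays, against 13.35, 13.99, 13.83 and 4.50 on the wild-type arrays. Regulatory T cell and checkpoint genes had a median of 0.44 and of -0.14, cytotoxic lymphocyte genes of 0.60 and 0.06, and interferon response genes of 0.55 and 0.11. Cxcl9, an interferon-gamma-induced chemokine, was 8.54, 10.45, 10.81, 12.04, 11.47 and 10.63 on the shTGFb arrays, against 11.94, 8.86, 8.36 and 4.54 on the wild-type arrays, and differed by 2.23 ± 1.21 and by 0.98 ± 1.28.

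S100a8 was the immune gene with the largest difference. It encodes a calcium-binding protein of neutrophils that stressed keratinocytes also make. It was 6.61, 10.33, 10.27, 9.41, 10.66 and 10.88 on the shTGFb arrays, against 8.73, 6.71, 6.32 and 4.44 on the wild-type arrays. shTGFb arrays 2 to 6 lay above all wild-type arrays and shTGFb array 1 below 2 of them. The difference was 3.14 ± 1.03 (95% interval 1.05 to 5.24, adjusted p = 0.505) and 2.31 ± 1.15 (95% interval -0.04 to 4.66) without the pair, and control tissue spanned 5.91 to 8.93. The list of neutrophil genes as a whole had 9 of 10 higher, with a median of 0.87 and of 0.21 without the pair. Among the chemokines, Cxcl14, made by epithelium and fibroblasts, was 9.50, 9.33, 11.58, 10.85, 11.43 and 11.62 on the shTGFb arrays, against 9.83, 9.58, 9.06 and 4.76 on the wild-type arrays. shTGFb arrays 3 to 6 lay above and shTGFb arrays 1 and 2 within the wild-type range, and the difference was 2.41 ± 0.94 (95% interval 0.49 to 4.33) and 1.5 ± 0.94 without the pair. Cxcl1, a neutrophil-attracting chemokine, was between 5.21 and 6.79 on the shTGFb arrays, against 6.04, 6.04, 6.30 and 11.73 on the wild-type arrays, so its difference of -1.49 ± 1.00 was -0.24 without the pair. Mast cell genes were higher in 6 of 6, with a median of 1.37 and of 0.68. Kit, the stem cell factor receptor of mast cells and melanocytes, was 9.38, 10.36, 9.93, 9.71, 10.29 and 10.17 on the shTGFb arrays, against 9.48, 8.91, 8.91 and 8.05 on the wild-type arrays, and differed by 1.14 ± 0.39 (95% interval 0.33 to 1.94) and by 0.80 ± 0.44 without the pair.

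Among vascular genes, the blood endothelial list depended on wild-type array 4 and, less so, on shTGFb array 2. Of 19 blood endothelial genes 17 were higher, with a median of 1.12, and 10 were higher without the pair, with a median of 0.06. Without wild-type array 4 alone 15 were higher, with a median of 0.27. Without shTGFb array 2 alone 16 were higher, with a median of 0.88. The water channel Aqp1 was 11.04, 12.38, 11.00, 10.94, 10.78 and 10.98 on the shTGFb arrays, against 9.89, 11.53, 10.44 and 4.94 on the wild-type arrays, and differed by 1.98 ± 0.94 and by 0.32. Egfl7, a secreted endothelial protein, differed by -0.71 ± 0.36 (95% interval -1.44 to 0.01) and had its highest value, 12.36, on wild-type array 4. Of 8 VEGF ligands and receptors 3 were higher and 5 lower, with a median of -0.31 and of -0.21 without the pair. Vegfa was 10.09, 10.63, 9.10, 9.28, 9.10 and 9.36 on the shTGFb arrays, against 10.04, 9.71, 10.18 and 10.27 on the wild-type arrays. shTGFb arrays 3 to 6 lay below all wild-type arrays and shTGFb arrays 1 and 2 among or above them, with a difference of -0.46 ± 0.36 and of -0.59 ± 0.39 without the pair. Pgf, placental growth factor, was 5.67, 4.46, 5.20, 5.57, 5.35 and 6.04 on the shTGFb arrays, against 7.16, 6.30, 6.39 and 6.50 on the wild-type arrays. No shTGFb array reached the wild-type arrays, and wild-type array 4 was within its group. Its difference was -1.21 ± 0.78 (95% interval -2.80 to 0.38). Vegfd, a lymphatic growth factor, differed by 1.41 ± 0.82 and by 0.34.

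Genes of rapid transcriptional response and of myelin held a few further differences. Zfp36, which destabilizes cytokine messages, was 10.71, 11.13, 11.12, 10.80, 10.88 and 11.49 on the shTGFb arrays, against 10.52, 10.66, 10.37 and 8.64 on the wild-type arrays. All shTGFb arrays were higher, by 0.05 at the nearest, and the difference was 0.97 ± 0.38 (95% interval 0.19 to 1.75) and 0.48 ± 0.39 without the pair. Egr1 differed by 2.23 ± 0.98 and by 0.82 ± 0.94 and was at 5.28 on wild-type array 4. Ier3, an early response gene, was the lowest of that list, at -0.84 ± 0.31 (95% interval -1.46 to -0.22) and -0.48 ± 0.32. The myelin gene Mbp was 11.04, 8.17, 10.34, 11.44, 10.16 and 10.85 on the shTGFb arrays, against 12.33, 10.69, 11.58 and 13.58 on the wild-type arrays. It differed by -1.71 ± 0.70 (95% interval -3.13 to -0.30) and by -0.77 ± 0.72, with the lowest value on shTGFb array 2 and the highest on wild-type array 4, the arrays also lowest in melanocyte genes and in stroma. The 7 ribosomal protein genes measured had a median of -0.13 and of -0.01 without the pair.

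The difference between the lines was also compared between day 4 and day 14, when 5 shTGFb and 5 wild-type arrays were available. For the difference of differences 0 genes (0%) were called, with a smallest adjusted p of 1, and 137 (1.39%) had an unadjusted p under 0.05. Without the pair of day 4 arrays the last count was 419, again with 0 called. Wild-type day 14 arrays 2 and 5 also had host genes near background, with 17669 and 16519 detected probes. Without these and wild-type day 4 array 4 the count was 96, with 0 called. All differences that follow include these arrays. Elf5 differed by 1.93 at day 4 and by -0.35 ± 0.45 at day 14, and the difference between the days was 2.28 ± 0.64 (adjusted p = 1). Lef1 differed by 1.75 at day 4 and by -0.03 at day 14, Mme by 1.70 and by -0.15, and Ccdc68 by 1.66 and by -0.02. Chac1 had opposite signs, with 1.11 at day 4 and -1.6 ± 0.85 at day 14. Clstn3 was at -1.33 at day 4 and 0.06 at day 14. Tgfb1 differed by 0.32 at day 4 and 0.51 at day 14, Col1a1 by 2.88 and 3.4 and Gsdmc by -2.57 and -1.62, and the difference between the days had an adjusted p of 1 in each of these genes.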

How the data were processed

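Total RNA was measured on 38 Illumina bead arrays, biotin-labelled cRNA having been made from Trizol extracts per the labels' protocols. The deposited non-normalized table holds signal intensity per probe without normalization, and beside it the deposited detection p-value of each probe. A further deposited table holds log2 intensity, tested on the file to be quantile-normalized without background correction. BeadStudio and limma were used, per the submitters' processing notes (neither version is stated), and 0 columns of values lacked a sample.

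Signals were background-corrected with limma 3.58.1 in R 4.3.3 (normexp from detection p-values, offset 16), quantile-normalized over all 38 arrays and put on the log2 scale. Gene names came from the platform annotation, updated to RefSeq GRCm38.p6: 1 symbol was given for 14836 of the 16247 probes that were also normalized by the authors, several for 5 and none for 1406. A detection p under 0.05 was required on 4 or more arrays, which removed 0 named probes. Each gene took its brightest probe, leaving 9890 genes. A limma model with a mean for each of 7 groups was fitted with moderated variances. Benjamini-Hochberg adjustment ran over all genes, with a threshold of 0.05. The fit was first checked on simulated data, in which the spread of each gene was capped and no array stood apart. That check does not measure power at the spread of these data. The number of arrays limits the precision, and no 2 arrays were identical.

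The genes, gene lists and tests were chosen with earlier results of these data known, so 33 lists are described by counts and medians only. The naming rule took 7 TGF-beta genes, the 10 highest and 10 lowest differences among genes whose groups did not overlap, the 8 highest and 8 lowest without shTGFb array 2 and wild-type array 4 at an unadjusted p under 0.05, and the leading members of each list. Alternatives covered left-out arrays, background, normalization, filter, probe choice, array weights and a replicate block. Figures were drawn with matplotlib 3.10.9.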

Additional observations from a re-analysis of the deposited data

Results flagged for a closer look

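Each gene and list mean in the text was screened within the 6 shTGFb and the 4 wild-type arrays for a highest or lowest array far from the rest of its group (Dixon's 95% critical value). Of 276 groups 37 passed it, and most of these fell on the arrays already named. Chance gives about 1 group in 20 only for independent groups that were not selected, and these were neither.

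shTGFb array 2 was the highest of its group for Tgfbr1 (11.19), Cd79b (12.65) and Aqp1 (12.38) and for the list means of blood endothelium (9.88), T cells (10.26) and B cells (11.59). It was the lowest for Wipf3 (5.34), Vgll3 (8.97), Egln3 (6.99), Gpnmb (8.49), Rab38 (7.75), Mlana (4.57), Myl1 (13.68) and the melanocyte list mean (6.44).

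Wild-type array 4 was the highest of its group for Gsdmc (11.30), Clstn3 (10.91), Gng8 (8.45) and Cxcl1 (11.73). It was the lowest for Fads3 (4.60), Fam107b (4.60), B3gnt8 (4.49), Ednrb (4.52), Krt14 (4.47), C1qb (4.35), H2-Ab1 (4.50), Cxcl14 (4.76) and Zfp36 (8.64). The same array was lowest for the list means of regulatory T cells and checkpoints (5.92), macrophages (5.11), dendritic cells and MHC class II (5.68) and inflammatory cytokines and chemokines (5.46).

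The rest fell on 4 further arrays. shTGFb array 1 was low for S100a8 (6.61), and shTGFb array 6 was low for Car3 (9.80) and high for Col5a2 (8.05). Wild-type array 1 was high for Krt33a (12.55), and wild-type array 2 was low for Mif (13.88) and Gpnmb (13.24).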

How the results depend on the processing

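The count of 0 called genes was the same under every alternative but the array weights, with 855 calls by limma's default estimate and 3 by its gene-by-gene estimate. At an unadjusted p under 0.05 these gave 2467 and 1366 genes, against 811 unweighted. That count ranged from 101 to 2262 as each array was left out, was 138 without shTGFb array 2 and wild-type array 4, 162 without the 3 arrays of the series with host genes near background, and 341 in the remaining 8 day 4 arrays fitted alone. It stayed within 1.5 times for the 10 arrays fitted alone (695), the deposited normalized table, an offset of 50, both other normalizations, both filters and the mean over probes. The split of higher and lower was 420 and 391, but 558 and 229 under median scaling, which shifts the median of all genes by 0.15, and 581 and 279 under cyclic loess. Without the pair, 125 to 194 genes lay under 0.05 with 0 called in every processing tried, and array weights did not converge there. Between days the count was 137, and 419 without the pair. These fits without the pair under other processing, and the gene-by-gene weights, were chosen after seeing the data.

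With the array number as replicate block over the 10 arrays, 0 genes were called, 767 had an unadjusted p under 0.05 and the median of the hair follicle list was 1.64. Same-numbered arrays correlated at -0.53, 0.08, 0.01 and 0.20, so the numbers do not pair the samples. A chip block was not run, since the columns name no chip.

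Of 106 genes, 99 kept their sign in all 24 alternatives. With default and gene-by-gene weights Tgfbr1 was at -0.13 and -0.07 and Tgfbr2 at -0.11 and -0.02, and with default weights Tgfbr3 was at -0.08 and Tgfbi at -0.14. Without the pair, in the full fit and in the 8 arrays alone, Tgfbi was at -0.04 and -0.04, Gpnmb at 0.11 and 0.10 and Mlana at 0.14 and 0.13. Cd8b1 was at 0.02 under cyclic loess and 1.18 as the mean over probes. On leaving out arrays Tgfbr1 ranged from -0.09 to 0.20, Gpnmb from -1.15 to 0.03 and Cd8b1 from -0.18 to 0.07. Of 33 list medians 10 turned sign in some alternative. Other causes were not tested.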
